A study of Mus musculus with 6 samples.

Results

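The 10 genes described here encode the leucine-rich and chondroitin sulfate proteoglycans of the vessel wall: Dcn (decorin), Lum (lumican), Bgn (biglycan), Fmod (fibromodulin), Ogn (osteoglycin), Prelp, Aspn (asporin), Vcan (versican), Acan (aggrecan) and Podn (podocan). They were chosen by name from the 55453 genes of the count table, and all 10 passed the filter on low counts, which left 18192 genes. RNA was measured by poly(A) sequencing of aortae from mice carrying the Itga8-CreERT2 driver, a tamoxifen-activated Cre recombinase expressed from the locus of an integrin of smooth muscle. Controls were heterozygous for a floxed allele of Srf, which encodes serum response factor, and knockouts were homozygous for it. Every mouse of both groups received tamoxifen at 33 mg/kg on 5 consecutive days, and tissue was taken 10 days after the last injection. The vessel ran from the descending arch to the renal branches, adventitia and endothelium were stripped off, and each aorta was frozen separately, per the labels. The sources used here give no strain, sex or age. The count table gave 3 control and 2 knockout libraries, of 26177821 to 34311855 counts. Knockout replicate 1 was not analysed here, and the design text says that 1 homozygous sample was left out as an outlier. The control mice already lack 1 copy of Srf in recombined cells, so the comparison is of losing both copies against losing 1.

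Small leucine-rich proteoglycans are secreted proteins that bind collagen fibrils and set their diameter and spacing, and several also bind TGF-beta. Decorin, biglycan and asporin form class I of the family, fibromodulin, lumican and Prelp belong to class II, osteoglycin to class III and podocan to class V. Versican and aggrecan are much larger hyalectans, which carry many chondroitin sulfate chains and form hydrated aggregates with hyaluronan through link proteins. In arteries, biglycan and versican are made by medial smooth muscle cells, while decorin and lumican are typical products of adventitial fibroblasts.

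Several members lie next to each other in the genome (GRCm38, GENCODE). Lum starts 46984 bases beyond Dcn on chromosome 10, followed on the same strand by Kera and Epyc. On chromosome 13, Ecm2, Aspn, Omd and Ogn follow each other on the plus strand, with Ogn 40480 bases beyond Aspn. On chromosome 1, Prelp lies 115839 bases from Fmod and 2304 bases from Optc, the gene of opticin. Vcan lies 43659 bases from Hapln1, and Acan 2 bases from Hapln3, both genes of link proteins. RefSeq promoter windows on GRCm38.p6, from 250 bases before to 50 after the start of transcription, were at hand for 8 of the 10 members in 9 windows. They were searched on both strands for the CArG box, the 10-base site that serum response factor binds. No member window held a CArG box, against 1.63% of all 32851 windows, and 1 member window held a word with a single position off, against 19.9% of all windows. Such a search describes letters in a window and says nothing of binding. The 250 bases before the start are printed for Ogn and its neighbour Aspn, which lay on opposite sides of the controls, for Vcan, and for Prelp, where capitals mark the word with 1 position off.
Ogn, chr13:49607765-49608014, plus strand: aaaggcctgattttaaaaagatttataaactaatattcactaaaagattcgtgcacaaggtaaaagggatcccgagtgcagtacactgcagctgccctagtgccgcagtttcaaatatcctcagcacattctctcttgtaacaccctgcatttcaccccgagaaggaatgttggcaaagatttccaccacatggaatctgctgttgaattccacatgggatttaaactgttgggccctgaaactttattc
Aspn, chr13:49544193-49544442, plus strand: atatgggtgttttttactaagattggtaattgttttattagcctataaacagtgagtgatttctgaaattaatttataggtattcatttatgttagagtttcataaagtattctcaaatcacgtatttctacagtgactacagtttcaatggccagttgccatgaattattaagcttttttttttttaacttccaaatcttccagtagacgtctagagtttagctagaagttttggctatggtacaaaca
Vcan, chr13:89742513-89742762, minus strand: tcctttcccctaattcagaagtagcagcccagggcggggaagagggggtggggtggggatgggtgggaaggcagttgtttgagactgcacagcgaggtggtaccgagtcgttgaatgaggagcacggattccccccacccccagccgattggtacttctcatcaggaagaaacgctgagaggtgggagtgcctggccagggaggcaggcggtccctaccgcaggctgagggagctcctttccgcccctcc
Prelp, chr1:133921402-133921651, minus strand: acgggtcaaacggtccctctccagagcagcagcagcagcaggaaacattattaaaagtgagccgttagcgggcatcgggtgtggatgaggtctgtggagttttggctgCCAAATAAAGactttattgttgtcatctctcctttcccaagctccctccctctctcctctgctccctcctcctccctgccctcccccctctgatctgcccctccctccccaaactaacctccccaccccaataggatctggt

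Values below are CPM, read counts divided by sequencing depth with the TMM correction for library composition, and each log2 fold change compares knockouts with controls and has its standard error (SE). Srf measured 56.1, 64.4 and 68.3 CPM in controls and 45.0 and 38.6 CPM in knockouts, with groups that did not overlap. Counts over the whole gene include exons outside any deleted part. The 10 smooth muscle markers listed, among them Itga8 of the driver locus, together made up 27870 to 29450 CPM in control and 16550 to 16970 CPM in knockout libraries. Whether these markers depend on Srf, or whether the number of smooth muscle cells differed, was not tested. Myh11, smooth muscle myosin, alone measured 8695 to 9439 CPM in control libraries. Control replicate 3 stood apart in skeletal muscle markers, which summed to 9.19 CPM there against 262 to 2190 CPM in the other libraries. Knockout replicate 3 held the fewest endothelial marker counts, 419 CPM against 769 to 1160 CPM elsewhere. In whole-tissue RNA, fewer cells of a type and less RNA per cell cannot be told apart. The p-values of the gene tests set each group difference against the spread among these 5 aortae within their groups. In edgeR the estimate of that spread also draws on the other genes.

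No member passed the edgeR quasi-likelihood test at an adjusted p under 0.05, nor did any other gene, so 0% of the 18192 genes were called in either direction. Osteoglycin and versican were lower, and asporin slightly higher, in both knockout libraries than in all control libraries. Aggrecan had the largest difference of the 10 but its groups overlapped. Decorin and lumican had positive differences smaller than the spread among control libraries, and biglycan, Prelp, podocan and fibromodulin were centred near 0. Of the 10 members, 7 had a log2 fold change below 0 and 3 above, as did 52.8% and 47.2% of all tested genes. Their median was -0.05, against -0.02 over all tested genes. At an unadjusted p under 0.05, edgeR gave 3 members lower and 1 higher, where all genes gave 6.75% lower and 9.04% higher. Groups did not overlap for 2 members lower and 1 higher, against 18.2% and 17.4% of all genes. DESeq2 called 1 member lower, Ogn, and 0 higher, against 2.61% lower and 3.33% higher of the 15741 genes to which it gave an adjusted p.

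**Figure D1:**
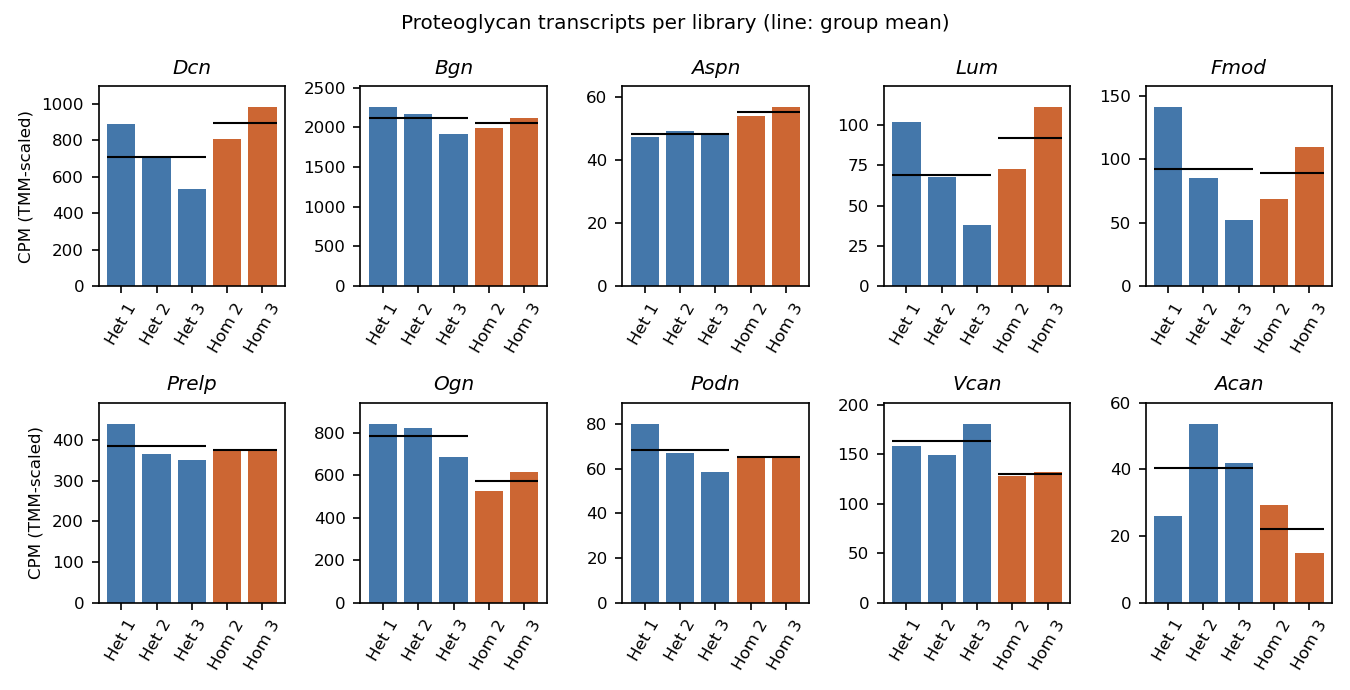
CPM of the 10 proteoglycan transcripts in each library (bars, from 0; each panel has its own scale), with heterozygous (Het) libraries in blue, homozygous (Hom) libraries in orange and lines at the group means. Both homozygous bars of Ogn and Vcan lie under all heterozygous bars, both of Aspn lie above, and the other panels overlap.

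As a family these transcripts were abundant. Together they took 0.503%, 0.447% and 0.375% of counts in control replicates 1, 2 and 3, and 0.421% and 0.467% in knockout replicates 2 and 3. Per kilobase of merged exons, biglycan stood highest, at 347 CPM per kb in control libraries, above 99.7% of the 18033 tested genes with a length. Osteoglycin followed at 305 CPM per kb, decorin at 122 and Prelp at 107, each above at least 98.8% of tested genes. Lumican (28.3 CPM per kb), fibromodulin (28.0) and asporin (20.6) formed a middle group, and podocan (16.1), versican (11.3) and aggrecan (5.42) stood lowest. Lumican and fibromodulin did not differ beyond their spread. The order depends on the transcript lengths used. On the longest principal transcript of each gene, decorin (404 CPM per kb) passed osteoglycin (305) and versican, whose principal transcript of 2321 bases leaves out much of its 14462 exonic bases, was 70.2. On that scale biglycan was first, then decorin and then osteoglycin in each of the 5 libraries, and aggrecan was last in each.

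Biglycan binds collagen and elastic fibre proteins and, when released, Toll-like receptors. Bgn (chromosome X, 73483602 to 73495933, plus strand) measured 2252, 2176 and 1915 CPM in control replicates 1, 2 and 3 and 1991 and 2115 CPM in knockout replicates 2 and 3. Both knockout values lay inside the control range. The difference was -0.04 on the log2 scale (SE 0.118), and the 95% interval of -0.32 to 0.24 bounds the difference that these libraries allow. The edgeR adjusted p was 0.901.

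Decorin, which coats collagen fibrils and binds TGF-beta, showed a wide spread among controls. Dcn (chromosome 10, 97479609 to 97518143) measured 886, 713 and 532 CPM in controls and 807 and 980 CPM in knockouts. The highest library was homozygous and the lowest heterozygous, but the groups overlapped. The log2 fold change was 0.33 (SE 0.211, edgeR adjusted p = 0.504), and it ranged from 0.18 without control replicate 3 to 0.52 without control replicate 1. Asporin, the class I member that lacks a typical glycosaminoglycan attachment site and limits TGF-beta signalling, varied least of the 10 among controls. Aspn (chromosome 13, 49544443 to 49567565) measured 47.4, 49.4 and 48.4 CPM in controls and 54.2 and 56.8 CPM in knockouts. Its coefficient of variation among control libraries was 2.05%, against a median of 12.5% over all tested genes. The groups did not overlap, with a difference of 0.20 on the log2 scale (SE 0.0826), an unadjusted p of 0.0485 and an edgeR adjusted p of 0.313. Its exons overlap 7 exonic bases of Cenpp on the other strand, and the sources used here do not say whether counting used strand.

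Lumican and fibromodulin, class II members that bind collagen I, varied most among the small proteoglycans. Lum (chromosome 10, 97565128 to 97572703) measured 102, 67.5 and 38.0 CPM in controls and 72.5 and 111 CPM in knockouts. From high to low, its libraries came in the same order as those of Dcn. Its log2 fold change of 0.41 (SE 0.376, edgeR adjusted p = 0.654) was 0.07 without knockout replicate 3, 0.13 without control replicate 3 and 0.80 without control replicate 1. Fmod (chromosome 1, 134037254 to 134048277) measured 141, 85.0 and 52.0 CPM in controls and 68.3 and 110 CPM in knockouts. Control replicate 1 was 2.71-fold above control replicate 3, and both knockout libraries lay between them. Fmod gave -0.06 on the log2 scale (SE 0.394) with a 95% interval of -0.99 to 0.87, so these libraries allow a difference of either sign within those bounds. Prelp, which anchors basement membranes to collagen, measured 440, 366 and 351 CPM in controls and 378 and 374 CPM in knockouts. Prelp gave -0.04 on the log2 scale (SE 0.123), with a 95% interval of -0.33 to 0.25. Of its 100-base words, 7.09% also occur in transcripts of other genes, and 350 of its exonic bases overlap the antisense gene Gm15851. The other 9 members shared 0 such words with other genes.

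Osteoglycin, also called mimecan, is the class III member of the 10. Ogn (chromosome 13, 49608046 to 49624501, plus strand, 7 exons) measured 841, 823 and 683 CPM in control replicates 1, 2 and 3. In knockout replicates 2 and 3 it measured 527 and 617 CPM, under every control library. The log2 fold change was -0.45 (SE 0.134), a 0.731-fold level, with a 95% interval of -0.77 to -0.13. The unadjusted edgeR p was 0.0121 and the adjusted p 0.188. DESeq2 gave -0.45 (SE 0.146) with an adjusted p of 0.0381, and edgeR with no filter on low counts gave an adjusted p of 0.0345. The limma-voom adjusted p was 0.175. Leaving out any 1 library kept the difference between -0.57 and -0.35, with edgeR adjusted p from 0.112 to 0.566. Smooth muscle markers were lower in the same libraries, at a median of -0.75 on the log2 scale for the 10 markers. Their part in the osteoglycin values was not tested. Podocan, a class V member expressed in smooth muscle, measured 80.2, 67.2 and 58.5 CPM in controls and 65.3 and 65.8 CPM in knockouts. Podn had a log2 fold change of -0.07 (SE 0.138, edgeR adjusted p = 0.857), and its knockout values lay within the control range.

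Versican is the main chondroitin sulfate proteoglycan of the arterial interstitium. Vcan (chromosome 13, 89655312 to 89742509, minus strand) measured 159, 150 and 181 CPM in controls and 128 and 132 CPM in knockouts. Both knockout values were under the lowest control value. The log2 fold change was -0.33 (SE 0.109), a 0.797-fold level, with a 95% interval of -0.59 to -0.07. Its unadjusted edgeR p was 0.0199, its adjusted p 0.224 and its DESeq2 adjusted p 0.110. Gene-level counts do not separate the splice forms of versican, which differ in their chondroitin sulfate domains. Aggrecan, best known from cartilage and also found in the arterial media, measured 25.9, 53.6 and 41.9 CPM in controls and 29.4 and 15.0 CPM in knockouts. Acan (chromosome 7, 79053483 to 79115099) thus overlapped between the groups, since control replicate 1 lay below knockout replicate 2. Its log2 fold change of -0.87 (SE 0.366, edgeR adjusted p = 0.313) was -0.46 without knockout replicate 3 and -1.44 without knockout replicate 2. The edgeR fit with no filter on low counts called it (adjusted p = 0.00946), while DESeq2 did not (adjusted p = 0.438). Col2a1, the defining collagen of cartilage, had 3 to 11 counts per library, and 6 of 12 chondrocyte markers were too low to be tested. None of the 6 tested chondrocyte markers had groups that did not overlap, against 18.2% lower and 17.4% higher of all genes. Comp, the most abundant of these markers, gave -0.10 (SE 0.230).

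**Figure D2:**
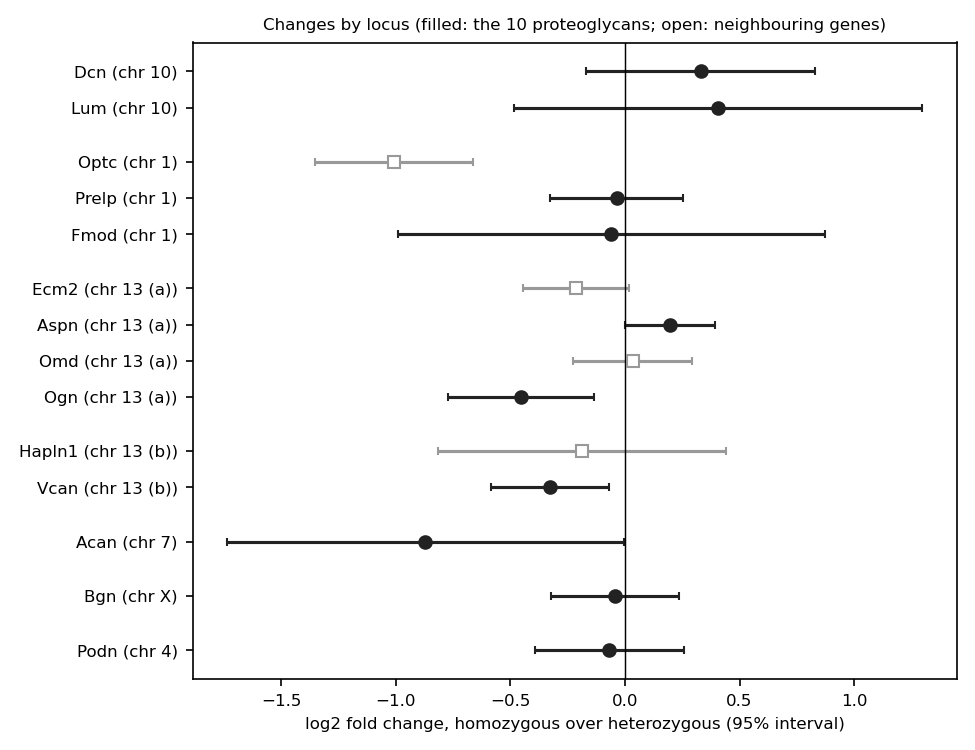
Log2 fold change (homozygous over heterozygous, points) with 95% intervals from the edgeR fit for the 10 proteoglycans (filled) and neighbouring leucine-rich or link protein genes (open). Genes are grouped by locus in chromosome order of each cluster, and (a) and (b) are separate loci of chromosome 13. Optc lies at -1.01 beside Prelp at -0.04, and Ogn at -0.45 lies in the cluster of Aspn at 0.20.

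In the Ecm2, Aspn, Omd and Ogn cluster, Ecm2, a leucine-rich matrix protein, measured 258, 233 and 232 CPM in controls and 201 and 214 CPM in knockouts, a log2 fold change of -0.21 (SE 0.098, edgeR adjusted p = 0.349). Omd, osteomodulin, had a log2 fold change of 0.03 (SE 0.110). Ratios of counts within a library do not depend on scaling between libraries. The count of Ogn over that of Aspn was 17.7, 16.7 and 14.1 in controls and 9.73 and 10.9 in knockouts. The ratio of Ogn to Dcn was 0.949, 1.15 and 1.29 in controls and 0.654 and 0.629 in knockouts. The ratio of Dcn to Bgn was 0.394, 0.328 and 0.278 in controls and 0.405 and 0.463 in knockouts. In these 3 ratios the groups did not overlap, and each gave an exact two-sided permutation p of 0.2, the smallest that 3 against 2 libraries allow. These were among 12 ratios chosen after the values were seen, with an adjusted p of 0.3 for each of the 8 that did not overlap. The ratio of Dcn to Lum ran from 8.69 to 14.0 in the control libraries and was 11.1 and 8.82 in the knockout libraries, inside that range.

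The gene next to Prelp differed more than any member with separate groups. Optc, the gene of opticin, a class III proteoglycan best known from the vitreous of the eye, measured 48.1, 38.5 and 38.0 CPM in controls and 18.8 and 22.5 CPM in knockouts. Its log2 fold change was -1.01 (SE 0.146), with an edgeR adjusted p of 0.104 and a DESeq2 adjusted p of 2.14e-06. The count of Optc over that of Prelp was 0.109, 0.105 and 0.108 in controls and 0.0499 and 0.0601 in knockouts. The ratio was nearly constant among controls, and both knockout values lay under all control values. Optc lies downstream of Prelp on the same strand. Of the 12 other leucine-rich and hyalectan genes listed, 9 were tested, with a median of 0.03. Optc was the 1 of them with an unadjusted p under 0.05, where all genes gave 6.75% lower and 9.04% higher. Kera, in the Dcn and Lum cluster, had 0 to 2 counts per library.

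Markers of fibroblasts, the usual source of decorin and lumican, were present in every library although the adventitia had been stripped. The 12 adventitial fibroblast markers summed to 1590, 1487 and 1394 CPM in control replicates 1, 2 and 3 and to 1663 CPM in each knockout library. Among control libraries the sum was highest in replicate 1 and lowest in replicate 3, an order also seen in 7 of the 10 members (Dcn, Lum, Bgn, Fmod, Ogn, Prelp and Podn). How common that order is over all tested genes was not counted, so it does not tie these members to fibroblasts. Of the 12 fibroblast markers, 10 had a log2 fold change above 0, against 47.2% of all tested genes, with a list median of 0.24. At an unadjusted edgeR p under 0.05, 3 were higher and 0 lower, against 9.04% and 6.75% of all genes. Groups did not overlap for 5 higher and 1 lower, against 17.4% and 18.2% of all genes. Pi16, the most abundant fibroblast marker, had a log2 fold change of 0.03 (SE 0.097). Against 17.4% of all genes, 6 of 8 adipocyte (median 0.63) and 6 of 8 macrophage markers (median 0.64) were higher in the knockout libraries without overlap. So were 6 of 8 skeletal muscle markers (median 2.52). The most abundant genes of these lists gave 0.84 for Fabp4 (SE 0.191, DESeq2 adjusted p = 0.00224), 0.82 for Lyz2 (SE 0.156, DESeq2 adjusted p = 0.000371) and 2.69 for Myh1 (SE 1.30, DESeq2 adjusted p = 0.572). Endothelial markers had a median of 0.04, with 5 of 8 above 0. Vwf, the most abundant of them, gave -0.25 (SE 0.545), with 463 and 96.0 CPM in knockout replicates 2 and 3. Schwann cell markers had a median of 0.48, with 4 of 5 tested genes above 0. Of these, 3 were higher and 1 lower without overlap, against 17.4% and 18.2% of all genes. Prx, the most abundant Schwann cell marker and the 1 below 0, gave -0.33 (SE 0.122, edgeR adjusted p = 0.261). Msln, the most abundant mesothelial marker tested, was at 0.0308 to 2.94 CPM in controls and 0.0707 and 1.11 CPM in knockouts. The part of these cells in the values of the 10 proteoglycans was not tested.

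**Figure D3:**
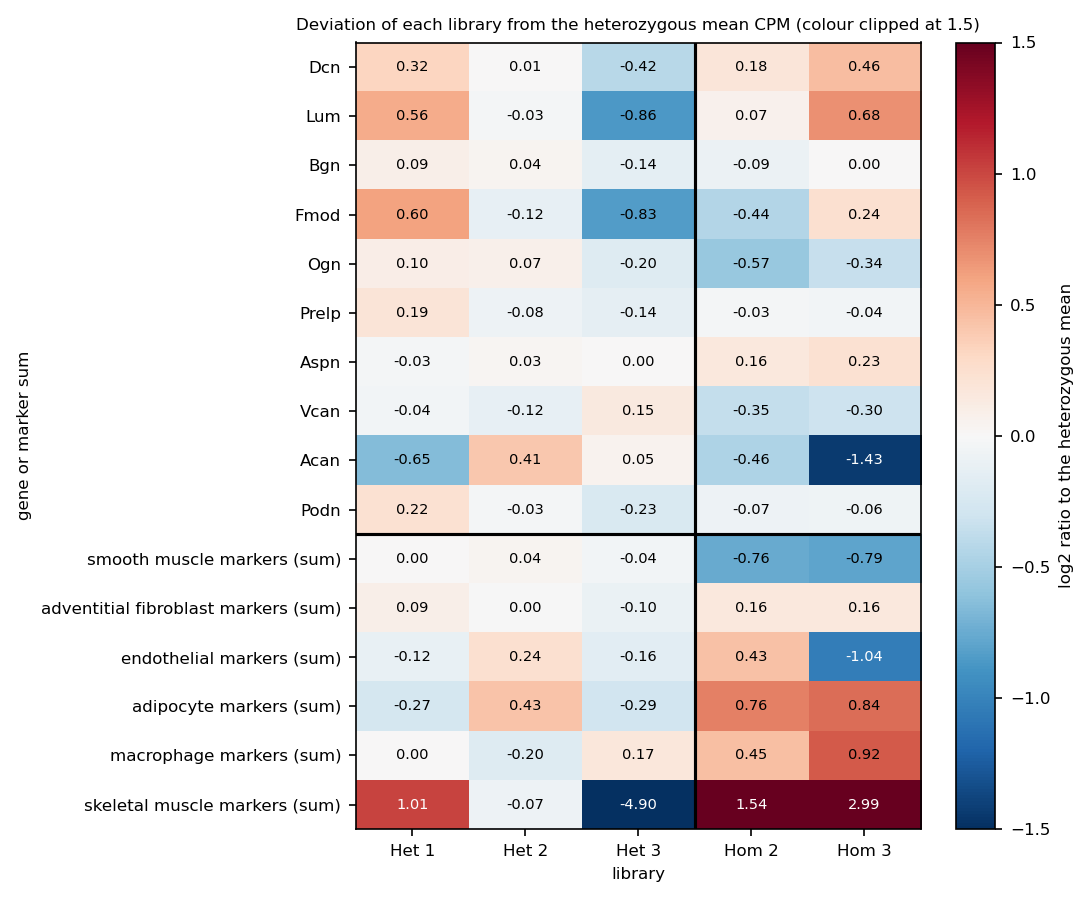
Log2 ratio of each library to the heterozygous mean CPM for the 10 proteoglycans (upper rows) and for summed marker lists (lower rows), with control libraries left and knockout libraries right of the line. In control replicate 3, Lum was at -0.86 and Fmod at -0.83, while the smooth muscle sum was at -0.76 and -0.79 in the knockout libraries.

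The enzymes that build the sugar chains gave estimates close to 0 for most genes. Of 13 genes for precursors and the linker region, Xylt1, a xylosyltransferase that starts chain synthesis on the core protein, measured 38.4, 26.0 and 33.8 CPM in controls and 44.9 and 64.5 CPM in knockouts. Xylt1 gave 0.74 on the log2 scale (SE 0.202), with an edgeR adjusted p of 0.163 and a DESeq2 adjusted p of 0.0208. It was the 1 gene of that list with an unadjusted p under 0.05, where all genes gave 6.75% lower and 9.04% higher. The list median was 0.00 (-0.00305). Fam20b, a xylose kinase of the linker region and the most abundant of the list, gave 0.00 (-0.0011, SE 0.120). Among 15 tested enzymes of chondroitin and dermatan chains, 12 had values below 0, against 52.8% of all tested genes, with a median of -0.11. Of these enzymes, 5 were lower and 1 higher without overlap of the groups, against 18.2% and 17.4% of all genes. Chsy3, a chondroitin synthase, measured 28.8, 30.7 and 37.1 CPM in controls and 18.5 and 21.3 CPM in knockouts. Chsy3 gave -0.69 (SE 0.140), with an edgeR adjusted p of 0.114 and a DESeq2 adjusted p of 0.00241. Chst12, a sulfotransferase, gave -0.31 (SE 0.112, edgeR adjusted p = 0.248), and Chpf, a chondroitin polymerizing factor and the most abundant of the list, gave -0.13 (SE 0.101). The 4 tested keratan sulfate enzymes included none with an unadjusted p under 0.05, and B4galt1 gave -0.06 (SE 0.137).

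Partners and proteases of the hyalectans gave estimates on both sides of 0. Of 13 tested genes for hyaluronan and its binding proteins, 1 was lower and 1 higher at an unadjusted p under 0.05. All genes gave 6.75% lower and 9.04% higher. Cd44, a hyaluronan receptor, gave -0.27 (SE 0.116, edgeR adjusted p = 0.316), and the link protein gene Hapln4, at under 1 CPM in each library, gave 0.99 (SE 0.335, edgeR adjusted p = 0.233). Tnc, tenascin C, measured 499, 557 and 557 CPM in controls and 561 and 721 CPM in knockouts. Adamts1, a protease that cleaves versican and aggrecan, measured 270, 317 and 594 CPM in controls and 240.0 and 240.6 CPM in knockouts. Adamts1 gave -0.71 on the log2 scale (SE 0.319, edgeR adjusted p = 0.343), and control replicate 3 was its highest library by far. Adamts15 gave -0.53 (SE 0.220, edgeR adjusted p = 0.309). It was the 1 of 7 proteases with an unadjusted p under 0.05, where all genes gave 6.75% lower and 9.04% higher.

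Collagens that carry the small proteoglycans, and receptors they act on, gave estimates on both sides of 0. Of 11 collagen genes, 5 were lower and 2 higher without overlap of the groups, against 18.2% and 17.4% of all genes. The list median was -0.22. Col6a2, a chain of collagen VI, which binds biglycan and decorin, measured 798, 767 and 733 CPM in controls and 636 and 593 CPM in knockouts. Col6a2 gave -0.32 (SE 0.0998), with an edgeR adjusted p of 0.208 and a DESeq2 adjusted p of 0.0358. Col14a1, a fibril-associated collagen whose protein binds decorin, gave 0.35 (SE 0.129, edgeR adjusted p = 0.263). Col6a1, another chain of collagen VI, gave -0.28 (SE 0.106, edgeR adjusted p = 0.276). Col3a1, the most abundant of the list by mean CPM over the 5 libraries, although under Col1a2 in both knockout libraries, gave -0.30 (SE 0.216), with overlapping groups. Among 13 signalling partners, 3 were lower and 1 higher at an unadjusted p under 0.05, with a median of 0.01. All genes gave 6.75% lower and 9.04% higher at that threshold. Igf1r, the IGF-1 receptor, to which decorin binds, measured 297, 309 and 344 CPM in controls and 223 and 212 CPM in knockouts. Igf1r gave -0.54 (SE 0.104, edgeR adjusted p = 0.108; DESeq2 adjusted p = 0.000297). Tgfbr1, a TGF-beta receptor, gave -0.67 (SE 0.174, edgeR adjusted p = 0.152; DESeq2 adjusted p = 0.0115). Met, a receptor bound by decorin, gave 0.57 (SE 0.139, edgeR adjusted p = 0.139; DESeq2 adjusted p = 0.0245). Lrp1, the most abundant gene of this list by mean CPM and an endocytic receptor for decorin, gave -0.02 (SE 0.121).

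**Figure D4:**
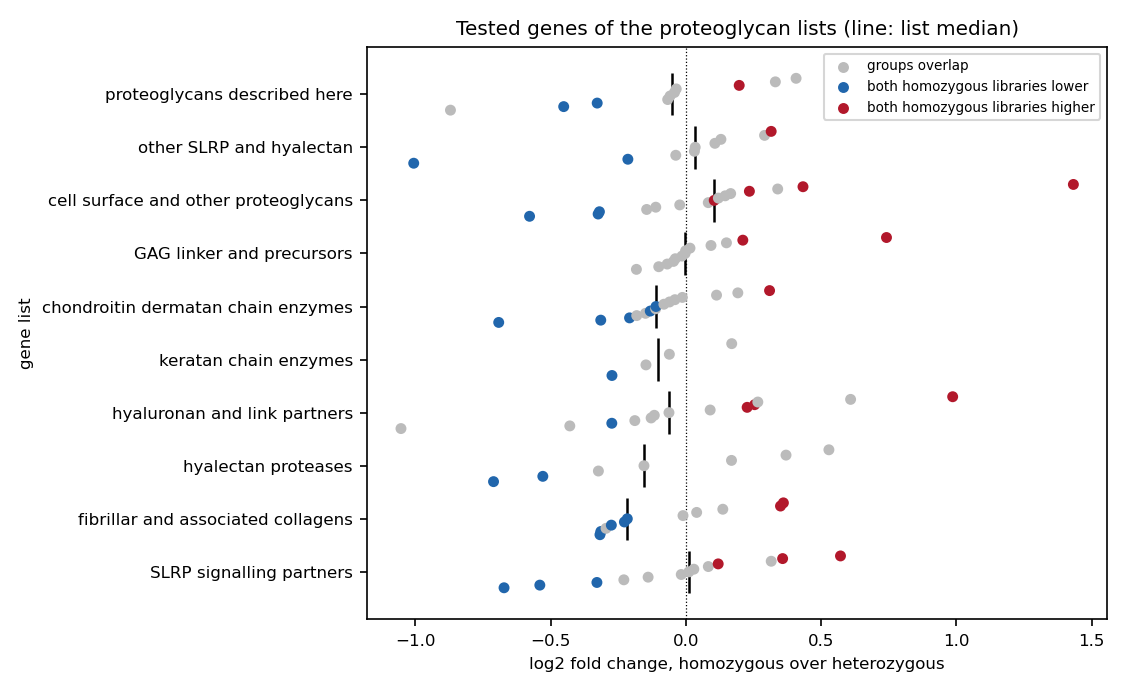
Log2 fold change (homozygous over heterozygous) of each tested gene in the proteoglycan list and in the 9 pathway lists, with blue for genes lower and red for genes higher in both knockout libraries than in all control libraries, grey for overlap and a line at each list median. The medians run from -0.22 for collagens to 0.11 for cell surface and other proteoglycans, and each list holds genes on both sides of 0.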

How the data were processed

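Poly(A) RNA was counted per gene in 5 of 6 labelled aortic samples. The authors deposited raw whole-number counts per gene, and the file holds 1 column per animal. The submitters' processing notes name GRCm38 and the tools STAR 2.7.0f, fastp 0.20.0, Subread 1.6.4 and featureCounts. The release of the annotation and the strand setting were not given in the sources used here.

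Genes were filtered with filterByExpr, scaled by TMM and tested with group as the only term by edgeR's quasi-likelihood F test (edgeR 4.0.16, R 4.3.3). Benjamini-Hochberg adjustment of p-values ran over all 18192 genes, with a threshold of 0.05. SE is the log2 fold change divided by the square root of F, and 95% intervals use the t distribution with 3 residual and 4.01 prior degrees of freedom. Scripts were tested on simulated data. Gene positions and lengths came from GENCODE mouse release 21, and promoters from RefSeq. DESeq2 1.42.0 and limma-voom (limma 3.58.1) were alternatives, with other scalings, filters, terms and left-out libraries. The members, 18 other gene lists and named genes were chosen with earlier results of these data known. Named are the members, Srf, the most abundant gene of each list, and for pathway lists up to 3 genes of lowest p under 0.05 without overlap of groups. Omd, Hapln1, Kera, Col1a2 and Col2a1 were added for their position or role after values were seen. The listed symbol Tmem2 matched no row. All pairs of libraries within a group differed by more than sampling noise. Counts of the members ran from 488 to 73366 per library.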

Additional observations from a re-analysis of the deposited data

How the results depend on the processing

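Ogn, Vcan and Acan kept a negative and Dcn, Lum and Aspn a positive difference under all 15 alternatives. The signs of Bgn, Prelp, Podn and Fmod, all near 0, turned under some. With library size alone, Bgn was 0.0087 and Prelp 0.014, and with limma-voom Fmod was 0.019. The labels share replicate numbers 2 and 3 between groups, and no label says that a number pairs samples. Deviations of same-numbered libraries correlated across genes at -0.0273 and -0.241, but those of 2 knockout libraries mirror each other about their mean, so these values do not test a pairing. With the replicate block, control replicate 1 has no knockout library of its number, so it does not inform the difference. That block gave 0.0077 for Bgn, 0.38 for Fmod, 0.071 for Prelp, 0.063 for Podn, 0.82 for Lum and 0.53 for Dcn. Acan was at -1.17 (SE 0.187, edgeR adjusted p = 0.0587) and Ogn at -0.395 (SE 0.193, edgeR adjusted p = 0.444). With this block 3 genes were called higher and 2 lower, none of them a member. Adding the description numbers as a term, where libraries within 10 of each other share a level, rests on knockout replicate 2 against control replicate 3. It gave 0.056 for Bgn, 0.39 for Fmod, 0.11 for Prelp, 0.16 for Podn, 0.93 for Lum and 0.60 for Dcn. Vcan was at -0.50, Acan at -0.51 and Ogn at -0.374 (edgeR adjusted p = 0.22), and the median over the members was 0.13. With this term 8 genes were called higher and 1 lower. DESeq2 called 524 genes higher and 411 lower, among them 1 member (Ogn), and limma-voom called 1 lower. With no filter on low counts edgeR called 982 higher and 432 lower, among them 2 members lower (Ogn and Acan). The prior degrees of freedom were then 29.5 in place of 4.01. With each library left out in turn, genes called higher ranged from 0 to 139 (139 without control replicate 2) and lower from 0 to 9, with 0 members. Leaving out control replicate 1 gave 0.0067 for Bgn, 0.38 for Fmod, 0.072 for Prelp and 0.061 for Podn, and leaving out knockout replicate 2 gave 0.24 for Fmod. Over these, the ranges were -0.092 to 0.0067 for Bgn, -0.44 to 0.38 for Fmod, -0.082 to 0.072 for Prelp and -0.15 to 0.061 for Podn. When a knockout library is left out, the remaining one is taken to vary as the controls do. The cause of these differences was not tested.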

Other observations

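Proteoglycans of the cell surface and of other tissues were listed beside the matrix genes. Of 15 tested, 3 were lower and 3 higher at an unadjusted p under 0.05, against 6.75% lower and 9.04% higher of all genes, with a median log2 fold change of 0.11 (0.105). Cspg4, the NG2 proteoglycan of mural cells, measured 1268, 1501 and 1291 CPM in controls and 912 and 901 CPM in knockouts. Cspg4 gave -0.58 (SE 0.118), with an edgeR adjusted p of 0.114 and a DESeq2 adjusted p of 0.000324. Sdc3, a syndecan, gave 0.43 (SE 0.139, edgeR adjusted p = 0.213). Prg4, the gene of lubricin, measured 2.09, 1.25 and 1.67 CPM in controls and 2.93 and 6.05 CPM in knockouts. Prg4 gave 1.43 (SE 0.358, edgeR adjusted p = 0.144; DESeq2 adjusted p = 0.0137).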
